A study of Rattus norvegicus with 6 samples.

Results

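Fibroblast activation protein (Fap) and 6 related proline-directed peptidases, Dpp4, Dpp7, Dpp8, Dpp9, Prep and Prcp, were followed in rat atrial fibroblasts after transfection of an siRNA against Gpd1l. They are 7 of the 40154 genes in the deposited count table. Fap was selected on its fall in the si-GPD1L libraries of these same data, among the matrix-associated genes, so its values here are a description and carry no test. The 6 relatives were listed by family, for contrast, with earlier results of these data known.

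The study sequenced poly(A)-captured RNA of atrial fibroblasts from Sprague-Dawley rats 1 to 3 days old, with 3 libraries transfected with a control siRNA (si-NC) and 3 with an siRNA against Gpd1l (si-GPD1L). Gpd1l encodes an enzyme related to glycerol-3-phosphate dehydrogenase, and the comparison addressed which transcripts differ when it is silenced. Cells of both groups came from the atria by preplating for 1.5 h, grew in 10% serum and were collected 24 h after transfection. All 6 libraries also share a label for atrial differentiation that the sources do not explain further. The digit in each library's name was read as a replicate number. The sources used here do not say whether it numbers separate cultures or, for si-GPD1L, separate siRNAs, so p-values measure the spread between these libraries, which may be technical.

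Peptide bonds next to proline resist most proteases, and the enzymes described here belong to the serine proteases that cut them. Fap and Dpp4 sit in the plasma membrane with the active site outside the cell. Both remove N-terminal dipeptides ending in proline, and Fap also cuts inside denatured collagen, whereas Dpp4 trims incretins, chemokines and neuropeptides. Fap is scarce in most resting adult tissue and marks activated fibroblasts in healing wounds, in tumour stroma and in the injured heart. Dpp7 works in acidic vesicles, Dpp8 and Dpp9 in the cytosol, Prep in the cytosol on short peptides, and Prcp in lysosomes, where it removes a C-terminal residue that follows proline.

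The annotated start regions of Fap, Dpp7 and Prep are shown because these genes had the values that the comparison turns on, and that of Ifih1 because it is the gene next to Fap on its 5′ side. Each sequence runs 5′ to 3′ along the gene, from 250 bases before the RefSeq start to 50 bases after it, on build GRCr8. Capitals mark every CpG dinucleotide in Fap (chr3:67616042-67616341, minus strand), Dpp7 (chr3:28567443-28567742, minus strand) and Prep (chr20:50138338-50138637, plus strand). In Ifih1 (chr3:67683919-67684218, minus strand) they mark the match to the core of the interferon-stimulated response element (ISRE).
Fap: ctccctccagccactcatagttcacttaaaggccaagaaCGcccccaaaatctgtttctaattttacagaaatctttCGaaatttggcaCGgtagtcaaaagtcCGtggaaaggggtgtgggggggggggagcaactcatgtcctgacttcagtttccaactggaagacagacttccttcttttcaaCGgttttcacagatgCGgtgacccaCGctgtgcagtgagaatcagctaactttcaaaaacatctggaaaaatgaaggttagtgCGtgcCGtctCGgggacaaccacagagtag
Dpp7: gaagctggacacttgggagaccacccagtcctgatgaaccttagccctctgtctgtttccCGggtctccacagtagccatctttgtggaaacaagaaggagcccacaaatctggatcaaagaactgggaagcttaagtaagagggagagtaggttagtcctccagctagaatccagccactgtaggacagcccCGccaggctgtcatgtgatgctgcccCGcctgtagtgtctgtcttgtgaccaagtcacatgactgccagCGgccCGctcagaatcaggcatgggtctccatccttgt
Prep: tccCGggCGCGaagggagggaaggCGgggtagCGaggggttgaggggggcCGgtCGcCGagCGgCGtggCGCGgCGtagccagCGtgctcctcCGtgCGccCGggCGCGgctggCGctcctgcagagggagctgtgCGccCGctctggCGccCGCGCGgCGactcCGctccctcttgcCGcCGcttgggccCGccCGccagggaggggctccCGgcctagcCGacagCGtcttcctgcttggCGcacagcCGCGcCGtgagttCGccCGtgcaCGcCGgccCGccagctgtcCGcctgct
Ifih1: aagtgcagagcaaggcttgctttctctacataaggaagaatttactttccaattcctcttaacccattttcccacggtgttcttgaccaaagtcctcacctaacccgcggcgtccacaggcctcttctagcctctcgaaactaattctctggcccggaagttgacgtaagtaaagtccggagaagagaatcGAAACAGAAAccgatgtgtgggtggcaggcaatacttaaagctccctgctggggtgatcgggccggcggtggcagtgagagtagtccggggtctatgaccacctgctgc

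The start region of Fap held 10 CpG dinucleotides at 48.0% G and C. Across 33469 such windows of the rat genome the medians were 7 CpG dinucleotides and 51.7% G and C, and 61.0% of windows had no more CpG dinucleotides than Fap. Dpp7 had 5. The other start regions were richer, with 13 in Prcp, 26 in Dpp8, 27 in Dpp4, 27 in Dpp9 and 45 in Prep, where G and C made up 78.0% of the bases. On either strand, none of the 7 windows held the ISRE core (GAAA, 2 bases of any kind, then GAAA), which 3.92% of all windows hold, or the interferon-gamma activated site TTCNNNGAA, which 8.87% hold. The TATA box TATAAA (14.2% of all windows) was absent from all 7 as well. The GC box GGGCGG, present in 33.1% of windows, occurred 3 times in Prcp, 2 times in Dpp8 and 1 time in Prep. In Ifih1 the ISRE core began 59 bases before the start. A match of letters is a description of these windows and says nothing of which factor binds there.

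Library totals lay between 16892255 and 20149732 counts over all genes, and 14852 genes passed the filter on low counts. Normalized counts are counts brought to the average library size with TMM factors. The median log2 fold change of the genes tested was -0.0049, so changes are given without further centring. The library si-NC replicate 1 stood apart from its group: a chi-square of its counts against the other si-NC libraries came to 21.5 and 29.9 per degree of freedom, against 9.01 between those and 4.12 to 6.22 within si-GPD1L. Without it the log2 fold changes were -0.78 for Fap, -0.69 for Dpp4, -0.39 for Dpp7, 0.24 for Prep and 0.18 for Prcp. Markers of fibroblasts were abundant in every library, the 12 markers summing to at least 1416920.0 normalized counts. Collagens made up most of this sum: in si-NC replicate 1, Col1a1 had 617623 and Col3a1 494599, against 2667 for Thy1.

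Gpd1l, the target, had 262, 333 and 314 normalized counts in the si-NC libraries. The si-GPD1L libraries had 220, 208 and 303, so that replicate 3 lay inside the si-NC range. The log2 fold change was -0.31 (SE 0.15, adjusted p = 0.234, edgeR quasi-likelihood test), and an exact two-sided permutation test of the normalized counts gave p = 0.2, where 0.1 is the smallest value that 3 against 3 libraries allow. Leaving out si-GPD1L replicate 3 moved its log2 fold change to -0.50 (adjusted p = 0.0733). The groups below are therefore named by their labels, and each direction is that of the libraries labelled si-GPD1L. The 21 interferon-stimulated genes examined were all higher in these libraries (adjusted p under 0.05 for 21 of 21, median log2 fold change 6.02), against 4.03% of all genes tested. Their summed normalized counts went from a range of 3576 to 3904 to one of 33749.5 to 41291. Mx1, Mx2, Oasl, Oas1a, Usp18, Rsad2, Cxcl10 and Rtp4 reached the cutoff of the low-count filter in 0 si-NC and 3 si-GPD1L libraries. These genes entered the test through si-GPD1L, so their calls follow in part from the filter. Mx2, an antiviral GTPase, went from 7.05 ± 1.95 to 4908 ± 559 normalized counts (SD, n = 3). The part of this response in the values that follow was not tested.

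Fap RNA was lower in the libraries labelled si-GPD1L, at 56.8% of its si-NC level. Its raw counts were 818, 694 and 783 in si-NC and 374, 470 and 475 in si-GPD1L. As normalized counts, these were 809.6, 735 and 765 against 408, 428 and 475. The lowest si-NC library was above the highest si-GPD1L library. The means were 769.9 ± 37.5 and 437 ± 34.2 normalized counts (SD, n = 3), a log2 fold change of -0.82 (SE 0.088). Of the 14852 genes tested, 133 (0.896%) had a log2 fold change at or below that of Fap. Its selection on this fall makes that rank uninformative. Fap lies on chromosome 3 of the deposited table's build rn6 (chr3:48467781-48536242, minus strand), and no other gene of the table overlaps it. In bulk RNA, fewer cells that express a gene and less RNA in each cell cannot be told apart.

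**Figure D1:**
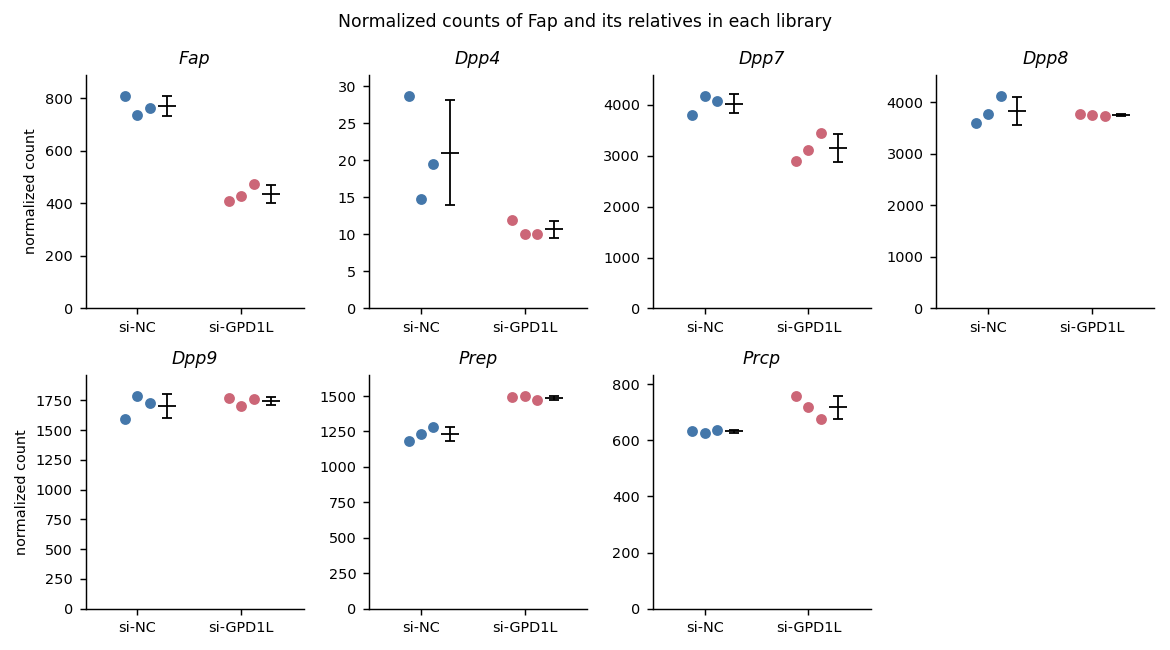
Normalized counts (vertical axis, from 0) of each gene in each of the 3 si-NC (blue) and 3 si-GPD1L (red) libraries, 1 point a library, with the mean and SD beside them. Fap lay between 735 and 809.6 in si-NC and between 408 and 475 in si-GPD1L, while the points of Dpp8 and Dpp9 overlapped between the groups.

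Dpp4, the closest relative of Fap and its neighbour on the chromosome (chr3:48291055-48372672, minus strand), was near the limit of detection. It had 29, 14 and 20 raw counts in si-NC and 11, 11 and 10 in si-GPD1L. All 3 si-NC libraries were above the si-GPD1L libraries, with si-NC replicate 1 far above the other two. The means were 21.0 ± 7.05 and 10.7 ± 1.16 normalized counts, with a log2 fold change of -0.98 (SE 0.37, adjusted p = 0.139), and the 95% interval of the ratio ran from 29.0% to 88.5% of si-NC before adjustment for the number of genes. Dpp4 reached the low-count cutoff of 0.541 CPM in 3 si-NC and 2 si-GPD1L libraries, so that libraries of both groups passed it. At these counts a difference of the size seen in Fap could not be told from the spread between libraries after adjustment.

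Dpp7 (chr3:2569135-2573387, minus strand), which releases dipeptides at acidic pH, was the most abundant of the 7 genes and fell in the libraries labelled si-GPD1L. The si-NC libraries had 3808, 4179 and 4084 normalized counts and the si-GPD1L libraries 2894, 3116 and 3441. No si-GPD1L library reached the lowest si-NC library. The means of 4024 ± 192 and 3150.4 ± 276 (SD, n = 3) gave a log2 fold change of -0.35 (SE 0.080, adjusted p = 0.0219), which is 78.3% of si-NC (95% interval 69.5% to 88.3%). Leaving out 1 library ended the call for si-NC replicate 2 (adjusted p = 0.0856) and for si-GPD1L replicates 1 (0.140) and 2 (0.133).

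Dpp8 (chr8:70521782-70576180, plus strand) and Dpp9 (chr9:10846493-10882560, plus strand) are the cytosolic pair known for holding the Nlrp1 inflammasome in check. Neither passed the test, and the counts of the groups overlapped. Dpp8 had 3597, 3771 and 4121 normalized counts in si-NC and 3761, 3740.4 and 3727 in si-GPD1L, so that all si-GPD1L values lay inside the si-NC range. Its log2 fold change was -0.033 (SE 0.072, adjusted p = 0.831), and the 95% interval of the ratio was 87.7% to 109.0% of si-NC. Dpp9 had 1592, 1786 and 1731 normalized counts in si-NC and 1766, 1703 and 1765 in si-GPD1L. The Dpp9 groups overlapped too, with a log2 fold change of 0.035 (SE 0.070, adjusted p = 0.819) and an interval of 92.2% to 114%. For both genes the direction turned when 1 library was left out (Dpp8 0.022 without si-NC replicate 3, Dpp9 -0.013 without si-NC replicate 1).

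Prep, prolyl oligopeptidase (chr20:50172618-50269992, plus strand), rose. Its normalized counts were 1185, 1233 and 1282 in si-NC and 1489.9, 1499 and 1469.9 in si-GPD1L. Every si-GPD1L library lay above every si-NC library, and the si-GPD1L values were close together. The means of 1233 ± 48.6 and 1486 ± 15.1 (SD, n = 3) gave a log2 fold change of 0.27 (SE 0.067, adjusted p = 0.0352), or 121% of si-NC (95% interval 109% to 133%). The call was lost when si-NC replicate 2 (adjusted p = 0.1001) or si-GPD1L replicate 1 (0.154), 2 (0.177) or 3 (0.101) was left out. Counts summed over transcripts (0.0625) and a term for the replicate number in the fit (0.0564) also ended the call.

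Prcp (chr1:157701089-157750177, plus strand), the lysosomal carboxypeptidase that inactivates angiotensin II, had 633, 627 and 638 normalized counts in si-NC and 757, 719 and 675 in si-GPD1L. The groups did not overlap, and the spread was wider in si-GPD1L. The means were 633 ± 5.48 and 717 ± 41.0 (SD, n = 3), with a log2 fold change of 0.18 (SE 0.078, adjusted p = 0.199) that did not pass the threshold. The 95% interval before adjustment was 101% to 128% of si-NC.

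Of the 6 relatives, 2 passed an adjusted p of 0.05, against 6.36% of all genes tested. Dpp7 was the 1 lower call, where 2.33% of genes were called lower, and Prep the 1 higher call, where 4.03% were. With the further condition of an absolute log2 fold change over 1, none of the 6 passed, and 1.62% of all genes did (0 by DESeq2 and by edgeR's exact test as well, and 0 past that fold at an unadjusted p under 0.05). Without the fold condition, 4 relatives had an unadjusted p under 0.05, the others being Dpp4 and Prcp. The share of all genes at that level was not computed, so counts at an unadjusted p have no background here or below. The groups did not overlap for 4 relatives, Dpp4, Dpp7, Prep and Prcp, against 29.0% of all genes tested. Fap also had groups apart, which its selection makes uninformative. With si-NC replicate 2, or with replicate 1 or 2 of si-GPD1L, left out, 0 relatives were called, and with si-GPD1L replicate 3 left out, 1 was.

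**Figure D2:**
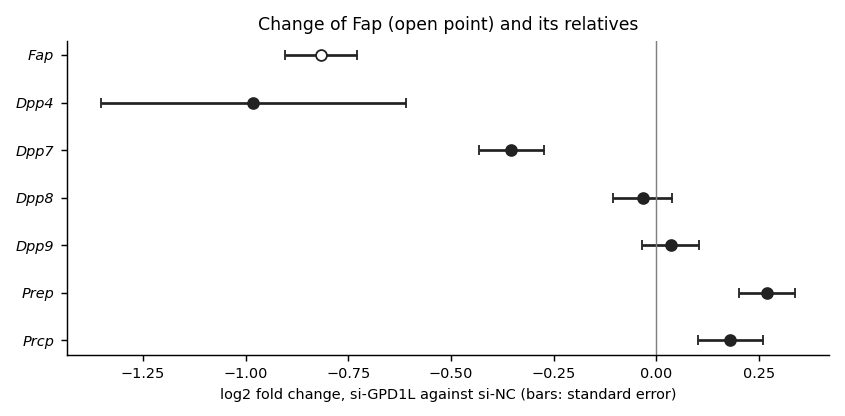
Log2 fold change of si-GPD1L against si-NC (horizontal axis) for Fap (open point, chosen on this value) and the 6 relatives (filled points), with bars of 1 standard error. Fap and Dpp4 had the lowest values, -0.82 and -0.98, with a longer bar for Dpp4, and Prep the highest, 0.27.

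Levels of different genes were compared on the deposited TPM scale, which divides counts by gene length. Dpp7 had 302 ± 27.9 TPM in si-NC and 250.3 ± 22.8 in si-GPD1L (SD, n = 3), above every other member in each library. Prep followed with 57.6 ± 4.92 and 73.5 ± 0.894, Dpp8 with 53.3 ± 6.02 and 55.0 ± 0.204, and Dpp9 with 49.2 ± 5.03 and 53.3 ± 0.895 TPM. In each of the 6 libraries Prep was above Dpp8 and Dpp8 above Dpp9, although the ranges of these neighbours overlapped across libraries. Dpp4 stood far below the rest, at 0.548 ± 0.159 and 0.297 ± 0.0305 TPM. The order was the same with TMM-scaled counts divided by gene length. Where reads cluster toward the 3′ end of transcripts, division by length lowers long genes, and this was not tested.

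Fap and Prcp exchanged places. Fap had 42.7, 41.8 and 44.2 TPM in si-NC and 24.0, 25.4 and 28.1 in si-GPD1L, and Prcp 32.3, 34.5 and 35.6 against 43.0, 41.3 and 38.7. Fap was therefore the higher of the pair in 3 of 3 si-NC libraries and the lower in all 3 si-GPD1L libraries. The ratio of Fap to Prcp was 1.32, 1.21 and 1.24 in si-NC and 0.557, 0.615 and 0.726 in si-GPD1L. Against Prep, the ratio was 0.816, 0.712 and 0.713 in si-NC and 0.327, 0.341 and 0.386 in si-GPD1L. The ratio of Fap to Dpp4, from 59.8 to 105 in si-NC and from 72.1 to 101 in si-GPD1L, overlapped between the groups. These ratios rest on the value that chose Fap and were not tested.

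**Figure D3:**
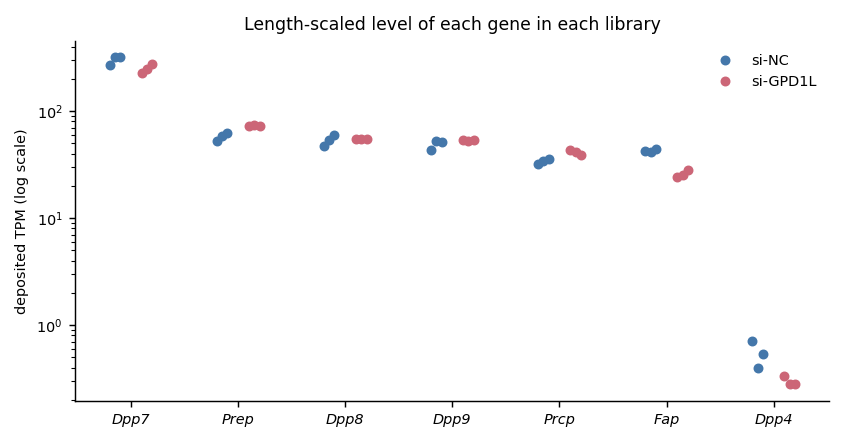
Deposited TPM (vertical axis, log scale) of the 7 genes in the 3 si-NC (blue) and 3 si-GPD1L (red) libraries, 1 point a library, in order of their mean. Dpp7 lay above 228 and Dpp4 at or below 0.714 TPM in every library, and Fap was above Prcp in si-NC and below it in si-GPD1L.

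The deposited transcript table lists 1 transcript each for Fap, Dpp4, Dpp7, Prep and Prcp. For Dpp8 it lists 7 and for Dpp9 4. Most Dpp8 transcripts held between 83.3% and 95.5% of the gene's reads each, and a short one of 2668 bases held 39.6% to 47.3%, so that the same reads were counted for several isoforms. The Dpp9 transcripts held between 70.9% and 95.2% each. Fitted over 37822 transcripts, of which 5.89% were called, the log2 fold changes ran from -0.072 to 0.025 for Dpp8 and from -0.0057 to 0.056 for Dpp9, and none of these 11 transcripts passed (lowest adjusted p = 0.578, edgeR quasi-likelihood test).

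Within 200000 bases of Fap, 3 other genes passed the filter, Dpp4, Ifih1 and Gca. Of these, 1 was called, against 6.36% of all genes tested. It was Ifih1, which is also among the 21 interferon-stimulated genes examined, all of them called higher. Ifih1, the cytosolic double-stranded RNA sensor MDA5, starts on the same strand and ends 21454 bases from the 5′ end of Fap. It had 212, 204 and 216 raw counts in si-NC and 1168, 1575 and 1334 in si-GPD1L. The groups were far apart, at 212 ± 3.32 and 1347 ± 80.0 normalized counts (SD, n = 3), and Ifih1 rose by a log2 fold change of 2.67 (SE 0.084, adjusted p = 2.73e-10). Gca, which encodes the calcium-binding protein grancalcin and lies 89723 bases from Fap beyond Ifih1, had 56.9 ± 6.81 and 43.6 ± 2.41 normalized counts (log2 fold change -0.38, adjusted p = 0.287). Dpp4 lies 95109 bases from the 3′ end of Fap. Gcg, the glucagon gene between Fap and Dpp4, had 0 counts in every library, which allows up to 3 counts in each.

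**Figure D4:**
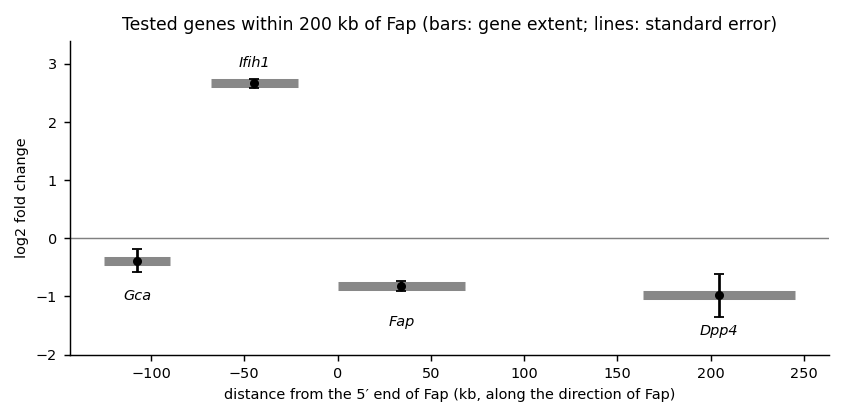
Log2 fold change of si-GPD1L against si-NC (vertical axis) of Fap and the tested genes within 200 kb, placed by distance in kb from the 5′ end of Fap along its direction. Grey bars span each gene and lines are 1 standard error, with Ifih1 at 2.67 on the 5′ side and Dpp4 at -0.98 on the 3′ side.

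The genes whose pattern was most like that of Fap were named by Pearson's r of log2 normalized counts over the 6 libraries, among 11039 genes with a symbol and a mean of at least 50 normalized counts. They were Cbx1 (r = 0.997), a heterochromatin protein, Dusp1 (0.997), a phosphatase of MAP kinases, Sqle (0.997), squalene epoxidase of cholesterol synthesis, Hdac9 (0.995), a histone deacetylase, and Celf2 (0.995), an RNA-binding splicing regulator. Their log2 fold changes were -0.15, -0.67, -0.37, -0.44 and -0.25. All were closer to 0 than that of Fap. With 6 libraries in 2 groups, such values largely describe the shared difference between the groups.

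Other genes of the peptidases' pathways were examined in lists. Beyond the members these held 122 genes, of which 87 were tested. At an adjusted p of 0.05, 12 (13.8%) passed, 4 higher and 8 lower, against 6.36% of all genes. Of all genes, 4.03% were called higher and 2.33% lower, the shares to set beside the counts of each list. The lists were compiled with earlier results of these data known, and they include interferon-responsive genes. Leaving out si-NC replicate 1 raised the count to 25, and leaving out either replicate 1 or 2 of si-GPD1L lowered it to 5. Called with any 1 library left out were 4 of the 12, Bdkrb2, Cxcl10, Cxcl12 and Erap1. Of these, Cxcl10 passed the low-count filter only through si-GPD1L, the group where it is high. Agtr1a, Cthrc1 and Gsdmd were lost without si-GPD1L replicate 1 or 2 (adjusted p up to 0.127, 0.130 and 0.160), Enpep without replicate 1 (0.0500322) and S100a4 without replicate 2 (0.0637). Ctsc and Tgfb3 were lost without si-NC replicate 2 or any 1 of the si-GPD1L libraries (up to 0.203 and 0.167), and Mmp14 without any library other than si-NC replicate 1 (up to 0.228).

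Among other proline-directed and dipeptidyl peptidases, 1 of 11 tested genes was lower, against 2.33% of all genes. None was higher, and the median log2 fold change was -0.028. The gene that fell was Ctsc, the lysosomal dipeptidyl peptidase I that activates leukocyte proteases, from 1778 ± 118 to 1429 ± 127 normalized counts (log2 fold change -0.31, adjusted p = 0.0430). Those with the most counts did not pass. Xpnpep1, which removes a residue before an N-terminal proline, had 2703 ± 92.0 and 2651 ± 122 normalized counts (adjusted p = 0.850), and the lysosomal tripeptidyl peptidase Tpp1 had 1896 ± 95.1 and 1685 ± 78.6 (adjusted p = 0.180).

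Of the 5 tested Fap substrates, 0 were called by edgeR's quasi-likelihood test at an adjusted p of 0.05 and 0 by DESeq2. At an unadjusted p under 0.05 there were 3, a count without a share of all genes beside it. The median log2 fold change was -0.13. The fibrillar collagens were on both sides of 0. The si-NC value of Col1a1 was 617623 normalized counts in replicate 1, against 830764 and 842412 in the others. Col1a1 had a log2 fold change of 0.25 (SE 0.11, adjusted p = 0.219) and Col3a1 one of -0.26 (SE 0.10, adjusted p = 0.156), the latter with 549316 ± 47815 against 457824 ± 51643 normalized counts. Of the 13 genes for partners of Fap and Dpp4 at the cell surface, 12 were tested, with a median log2 fold change of -0.063. Among these, 1 was lower, against 2.33% of all genes. This was Mmp14, the membrane-bound collagenase, which fell from 27447 ± 1420 to 22321 ± 954 normalized counts (log2 fold change -0.30, adjusted p = 0.0410). Fibronectin (Fn1), with a log2 fold change of 0.31 (adjusted p = 0.135), and the integrin chain Itgb1, at -0.08 (adjusted p = 0.635), did not pass.

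The listed Dpp4 substrates are chemokines, hormones, neuropeptides and growth factors, and 3 of the 18 passed the filter, with 5 at 0 counts in every library. The chemokine Cxcl12, which guides progenitor cells through Cxcr4, fell from 2950.2 ± 90.4 to 2073 ± 221 normalized counts (log2 fold change -0.51, SE 0.083, adjusted p = 0.00280). Cxcl10, an interferon-induced chemokine, rose from 3.69 ± 2.04 to 304 ± 28.7 (log2 fold change 6.31, adjusted p = 1.94e-09). It reached the low-count cutoff in 0 si-NC and 3 si-GPD1L libraries, so that it entered the test through si-GPD1L. Cxcl12 and Cxcl10 moved in opposite directions. The natriuretic peptide gene Nppb had 581 ± 129 and 530.2 ± 27.4 normalized counts (adjusted p = 0.612).

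In the list of the Nlrp1 inflammasome, which Dpp8 and Dpp9 restrain, 1 of 6 tested genes was higher, against 4.03% of all genes. None was lower, and the median log2 fold change was 0.22. Gsdmd, the pore-forming gasdermin D, had 1155 ± 105 normalized counts in si-NC and rose to 1527 ± 166 (log2 fold change 0.40, adjusted p = 0.0254). Nlrp1a had 229 ± 9.96 and 280.1 ± 13.0 normalized counts and did not pass (adjusted p = 0.111). Its groups did not overlap, as for 29.0% of all genes tested. Casp1, the protease that cuts gasdermin D, had only 13.7 and 15.1 normalized counts on average, near the low-count filter (adjusted p = 0.880).

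Genes that regulate Fap and Dpp4 transcription had a median log2 fold change of -0.0087. Of the 15 tested, 1 passed, in the lower direction, against 2.33% of all genes. Tgfb3, a ligand of the pathway that induces Fap, fell from 10648 ± 453 to 8631 ± 123 normalized counts (log2 fold change -0.30, adjusted p = 0.0261). Tgfb1 had a log2 fold change of 0.11 (adjusted p = 0.378) and the receptor Tgfbr2 one of -0.01 (adjusted p = 0.985).

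In the fibroblast activation list, where Fap itself would belong, 2 of 21 tested genes were lower, against 2.33% of all genes. None was higher, against 4.03%. The median log2 fold change was -0.058, with a range from -0.61 to 0.35. S100a4, a calcium-binding protein of motile fibroblasts, fell from 3574 ± 741 to 2341 ± 51.1 normalized counts (log2 fold change -0.61, adjusted p = 0.00841). Cthrc1, a secreted glycoprotein of activated cardiac fibroblasts, fell from 3185 ± 223 to 2457 ± 186 (log2 fold change -0.37, adjusted p = 0.0157). The other 19 tested genes did not pass.

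**Figure D5:**
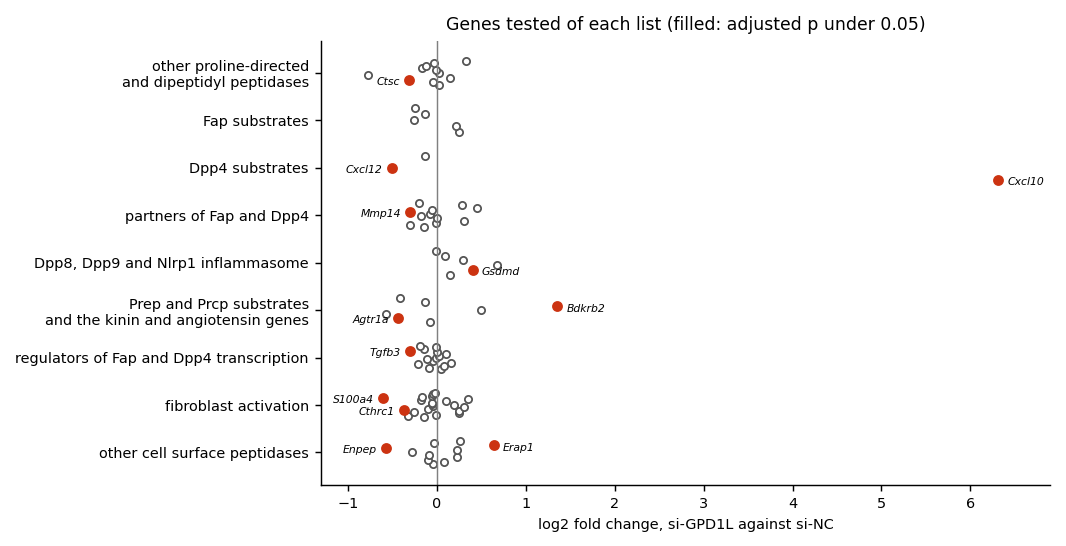
Log2 fold change of si-GPD1L against si-NC (horizontal axis) for the tested genes of 9 lists, 1 point a gene, with genes past an adjusted p of 0.05 filled and named. Apart from Cxcl10 at 6.31 and Bdkrb2 at 1.36, all points lay between -0.78 and 0.68.

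Markers of other cells were read beside these values, where 4.03% of all genes tested were called higher and 2.33% lower. Of the 12 fibroblast markers, 2 were lower, the collagen-binding proteoglycans Dcn (log2 fold change -0.66, adjusted p = 0.0129) and Lum (-0.77, adjusted p = 0.00580), and none higher. The call of Dcn was lost without si-GPD1L replicate 1 or 2 (adjusted p up to 0.0842). Endothelial markers were called higher in 4 of 11 tested (Pecam1, Cdh5, Tie1 and Plvap). All 11 had a log2 fold change above 0, with a median of 0.56. The summed normalized counts of the endothelial markers were 1980.4 to 2448 in the si-NC libraries and 2684 to 2826 in those labelled si-GPD1L. Cardiomyocyte markers summed to 35564 to 37581 and 31621 to 34640 normalized counts, ranges that did not overlap. Of the 10 tested, 1 was called lower, and 8 had a log2 fold change below 0 and 2 above. The macrophage sums overlapped, at 2862 to 3094 and 2437 to 3527, with 0 of 10 called by edgeR or DESeq2 and 0 at an unadjusted p under 0.05, and so did those of smooth muscle and pericytes, at 12182 to 14609 and 12207 to 13895, although 1 of those 8 markers was higher (Cspg4) and 1 lower (Des). Mesothelial markers summed to 686 to 750.4 and 661 to 694, with 0 of 5 called by edgeR or DESeq2 and 1 at an unadjusted p under 0.05, and the 6 T cell markers to 78.2 to 95.7 and 64.4 to 88.9, almost all of it Cd4, with Cd3e and Cd3d at 0 counts in every library. The part of these differences in the values of Fap and its relatives was not tested.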

How the data were processed

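Poly(A)-captured RNA of 6 libraries was sequenced, 3 labelled si-NC and 3 labelled si-GPD1L. The authors deposited raw read counts and TPM values for 40154 genes and 55760 transcripts. According to the submitters' processing notes, bcl2fastq, HISAT2 2.1.0, HTSeq 0.12.4 and build rn6 were used, and whether counting used strand is not given in the sources used here. The deposited TPM values could be rebuilt in each library from the counts and the gene lengths in the same table. Columns of the authors' own comparison (signal, fold change, p and q values) and their GO and KEGG enrichment tables were not used.

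Gene counts were analysed in R 4.3.3 with edgeR 4.0.16 (filterByExpr, TMM, glmQLFit and glmQLFTest), with Benjamini-Hochberg adjustment over 14852 genes and a threshold of 0.05. Adjusted p-values come from this quasi-likelihood test, except where alternatives are compared in the closing section, whose ranges include DESeq2 1.42.0 and edgeR's exact test. The scripts were tested on simulated data. Fap was given no p because it was selected on this contrast. The members and lists were chosen with earlier results of these data known, and 1 gene of the lists is not reported here.

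The genes named were Gpd1l, the 7 members, up to 5 genes of each list past the threshold and the 2 with the most counts, the tested genes within 200000 bases of Fap or Dpp4, and the 5 most like Fap. Some further genes were chosen for naming after their values were seen, among them Tgfb1, Casp1, Gcg, Cd3e and Cd3d. Thy1, Cd4 and more than 5 interferon-stimulated genes were also named outside these rules. In the activation list Ccn2 was matched by gene ID to Ctgf. Promoter windows came from RefSeq GRCr8, with a match for 7 of 7 members, and their coordinates were not mixed with those of rn6. Intervals cover 95% and come from the fitted standard errors.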

Additional observations from a re-analysis of the deposited data

How the results depend on the processing

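The log2 fold change of Fap stayed between -0.88 and -0.77 over 14 alternatives, which moved it by less than the spread between libraries, and that of Gpd1l over 13 alternatives lay between -0.50 and -0.21 with adjusted p from 0.0604 to 0.579. Dpp7 passed in 11 of 14 alternatives (adjusted p 0.000316 to 0.140) and Prep in 8 of 14 (0.0104 to 0.177), while Dpp4 (0.0915 to 0.385), Prcp (0.153 to 0.508), Dpp8 and Dpp9 passed in none. The direction reversed for Dpp9 without si-NC replicate 1 (log2 fold change -0.013) and for Dpp8 without si-NC replicate 3 (0.022), with ranges of -0.013 to 0.069 and -0.077 to 0.022 over single libraries left out, and the cause was not tested. The relatives called numbered 1 with the replicate block (which lost Prep, adjusted p = 0.0564), 0 with an absolute log2 fold change over 1 and 0 to 2 with 1 library left out. Over all genes the 945 calls became 1528 with edgeR's exact test, 1929 with no filter, 240 with the fold threshold and 361 to 1531 with 1 library left out. Of the list genes, the 12 calls became 23 with no filter, 2 with the fold threshold and 5 to 25 with 1 library left out. Same-numbered libraries did not deviate together (correlations of 0.040, -0.0045 and 0.047). With 3 libraries in each group this cannot exclude that the numbers pair the libraries, so the block is given as an alternative. Depth limits Dpp4 in particular, at 10 to 29 counts in a library.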

Other observations

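In the list of other cell surface peptidases, which are not specific for proline, 1 of 11 tested genes was higher and 1 lower. Over all genes, 4.03% were called higher and 2.33% lower. The higher one, Erap1, is an aminopeptidase that trims peptides for presentation in the endoplasmic reticulum rather than at the surface, and rose from 1784 ± 166 to 2779.6 ± 91.5 normalized counts (SD, n = 3), a log2 fold change of 0.64 (adjusted p = 2.59e-04). Enpep, aminopeptidase A, which acts on angiotensin II, fell from 563 ± 48.4 to 378 ± 46.0 (log2 fold change -0.57, adjusted p = 0.00806). The abundant Cpd (2994 ± 434 and 3508 ± 263, adjusted p = 0.203) and Ece1, the endothelin-converting enzyme (2465 ± 136 and 2877 ± 154, adjusted p = 0.0919), did not pass.

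Among substrates of Prep and Prcp and genes of the kinin and angiotensin systems, 1 of 7 tested genes was higher and 1 lower. The shares over all genes were 4.03% and 2.33%. The bradykinin receptor Bdkrb2 had 32.6 ± 7.75 normalized counts in si-NC and rose to 83.8 ± 12.5 (log2 fold change 1.36, SE 0.23, adjusted p = 0.00333). The angiotensin II receptor Agtr1a fell from 1078 ± 99.6 to 794 ± 97.7 (log2 fold change -0.44, adjusted p = 0.0221). Tmsb4x, thymosin beta-4, whose fragment is released by Prep, had 28053 ± 5632 and 21015 ± 771 normalized counts and did not pass (adjusted p = 0.0582). Its groups did not overlap, as for 29.0% of all genes tested.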
